A study of Mus musculus with 27 samples.

Results

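Genes of the splicing machinery and of the heterogeneous nuclear ribonucleoproteins were followed in whole brain of C57 and DBA mice. The members were chosen by gene symbol, with earlier results of these data known. They are every probe set whose current symbol starts with Snrp, Sf1, Sf3, Srsf, Hnrnp, U2af, Prpf, Ptbp or Celf, or with Lsm and a digit. This gave 89 of the 12488 probe sets on the array (a probe set is a group of probes read as 1 value), standing for 66 of 8252 named genes. A further 8 probe sets list such a gene beside another gene or pseudogene and were left unnamed. RNA came from whole brains of naive mice aged 10 weeks. There were 5 C57 males and 4 DBA animals, whose sex is not given in the sources used here. Each animal was read on 1 array of the platform used. The strain labels read C57BL/2 and DBA/2J, both inbred and with no other treatment or genetic change named. Nothing in the labels says how the brains or RNAs were batched, and in a whole organ fewer cells of a type and less RNA per cell cannot be told apart. Whether the strains differ in sequence under the probes was not tested, so each difference below is one of signal at a probe set.

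Introns are removed from nuclear transcripts by the spliceosome, which is built from small nuclear ribonucleoproteins (snRNPs), particles of a short U-rich RNA and its proteins. The U1 and U2 particles, with U2AF and SF1, first mark the ends of the intron and its branch point, and the U4, U5 and U6 particles then join and are rearranged into the active enzyme. SR proteins and hnRNPs bind exons and introns around the splice sites and, in general, favour or oppose their use, and PTB and CELF proteins regulate many exons that are spliced differently in neurons and other tissues. Brain is known for its large amount of alternative splicing.

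The intensities had been scaled before deposit: with 2% trimmed from either end, the mean was 500.3 on each of the 9 arrays. Median intensity ran from 159.6 to 197.8 between arrays, and arrays correlated at 0.939 to 0.978 across the tested probe sets. Neuron markers were bright in both strains, with 12 of 12 measured genes above the brightness limit used here (an intensity of 35.4) and a summed intensity of 50670 to 56800 in C57 and 49864 to 56880 in DBA. Of these genes 8 were above 0 and 4 below, and 1 was called, Slc32a1, the vesicular GABA transporter gene, which was lower in DBA (-1.76 ± 0.26, adjusted p = 0.00416). The sums of oligodendrocyte markers were 21780 to 30040 and 21790 to 25730, with 6 of 8 tested genes below 0 and 1 gene called, Mobp, lower at a set that is not its brightest. Those of choroid plexus and ependyma markers were 1414 to 3858 and 3771 to 5020, with 3 of 4 tested genes above 0 and 0 called. For microglia markers they were 6198 to 7626 and 6232 to 6758, with 2 of 9 tested genes lower in DBA. In these 3 lists Cnp, Aqp1 and Ptprc lay below the brightness limit. The 3′ to 5′ signal ratio of 4 control genes, a measure of RNA integrity and labelling, was 0.828 in C57 and 0.651 in DBA as a mean log2 value (difference -0.18, exact 2-sided permutation test, p = 0.0397, and 0.0536 to 0.125 with any 1 animal other than C57 animal 1 left out). Its part, and that of the cell type markers, in the strain differences below was not tested.

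The promoters of Snrpb2 and Srsf2 are printed here because these are called genes of the next paragraphs with an entry in the sequence table. Each line gives 250 bases before and 50 bases from the start of the gene, 5′ to 3′ on the gene's own strand, from RefSeq on GRCm38.p6. The Snrpb2 window is chr2:143062819-143063118 on the plus strand and the Srsf2 window chr11:116853045-116853344 on the minus strand. These motifs were chosen with results of these data known. Capitals mark matches, on either strand, to GGGCGG (the GC box of Sp factors), CCGGAAG (an ETS core), GCGC and TGCGC parted by any 1 base (the form bound by NRF1), CCAAT and TATAAA.
Snrpb2: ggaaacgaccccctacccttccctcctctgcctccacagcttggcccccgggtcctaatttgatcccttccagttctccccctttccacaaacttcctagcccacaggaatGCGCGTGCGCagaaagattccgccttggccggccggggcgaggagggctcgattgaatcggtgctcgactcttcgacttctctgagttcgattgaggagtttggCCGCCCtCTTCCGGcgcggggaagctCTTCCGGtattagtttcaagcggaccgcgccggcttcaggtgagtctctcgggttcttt
Srsf2: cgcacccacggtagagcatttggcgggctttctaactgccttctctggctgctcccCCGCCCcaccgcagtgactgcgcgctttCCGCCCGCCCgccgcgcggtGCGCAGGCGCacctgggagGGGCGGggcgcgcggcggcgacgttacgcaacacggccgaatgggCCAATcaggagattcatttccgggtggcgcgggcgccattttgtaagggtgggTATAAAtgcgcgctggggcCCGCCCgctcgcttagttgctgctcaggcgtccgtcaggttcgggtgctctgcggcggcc
The Snrpb2 window held 2 ETS cores, 1 GC box and 1 NRF1-type match. In the Srsf2 window there were 5 GC boxes, 1 NRF1-type match, 1 CCAAT box and 1 TATA box. A window was found for 56 of the 66 member genes, 74 windows in all since some genes have several starts. The NRF1-type motif was present in 21.6% of the member windows, against 9.3% of 7080 windows of the other genes tested on the array and 4.6% of all 32851 windows. CCGGAAG was present in 27.0%, 15.6% and 8.9% of the same windows, and GGGCGG in 70.3%, 60.6% and 35.7%. CCAAT was in 43.2%, 36.6% and 37.4% and TATAAA in 8.1%, 8.5% and 13.6%. The median window held 25.5 CpG dinucleotides for the members, 20 for the other tested genes and 7 for all genes. These matches describe the letters in the windows only, and the arrays measured no binding.

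Most of the splicing machinery could not be told apart between the strains, and 3 probe sets could. Sf3b5, which encodes a protein of the U2 particle, was lower in DBA brain, and Srsf2, which encodes an SR protein, was higher at 1 of its 2 sets. Snrpb2, which encodes another U2 protein, was lower at the dimmer of its 2 sets, which was bright enough to be tested only through its C57 values, and its brighter set did not pass. These were 3 of the 84 member sets bright enough to be tested (3.57%), at an adjusted p under 0.05 from limma over all 9316 tested sets. Over all tested sets 2.5% were called, so the members' share lay close to the background. By direction, 2 member sets were lower (2.38%, background 1.61%) and 1 was higher (1.19%, background 0.891%). The animals of the strains did not overlap at the same count of member sets, 3 of 84, against 6.45% of all tested sets. An unadjusted p under 0.05 was found for 6 member sets (7.14%), against 12.2% of all tested sets. Differences from here on are log2, DBA minus C57, ± the standard error of the fit, and folds are ratios of geometric mean intensities.

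The rest of the members were bounded rather than shown to be equal. Of the 84 tested sets 42 lay above 0 and 42 below, with a median of -0.00 against 0.01 over all tested sets. The median absolute difference was 0.11 for the members and 0.15 over all tested sets. The 95% interval of the difference lay within a log2 value of 1 on either side, a change of 2-fold, at 75 member sets (89.3%), against 85.3% of all tested sets. It lay within 0.5 on either side at 49 member sets (58.3%, against 44.4%). The 9 intervals that reached beyond 2-fold were those of the 3 called sets and of Hnrnph2, Celf1 (104073_at), Hnrnpu (93761_at), Ptbp2 (160374_r_at), Prpf19 (162235_f_at) and the pseudogene Snrp1c-ps2. The other 5 of the 89 member sets, of Srsf1 (101022_at), Snrpb (161335_r_at), Hnrnpdl (161372_f_at), Prpf39 (161795_r_at) and Sf1 (99567_at), lay below the brightness limit with intensities of 1.6 to 31.3, and each of those genes had another set that was tested.

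**Figure D1:**
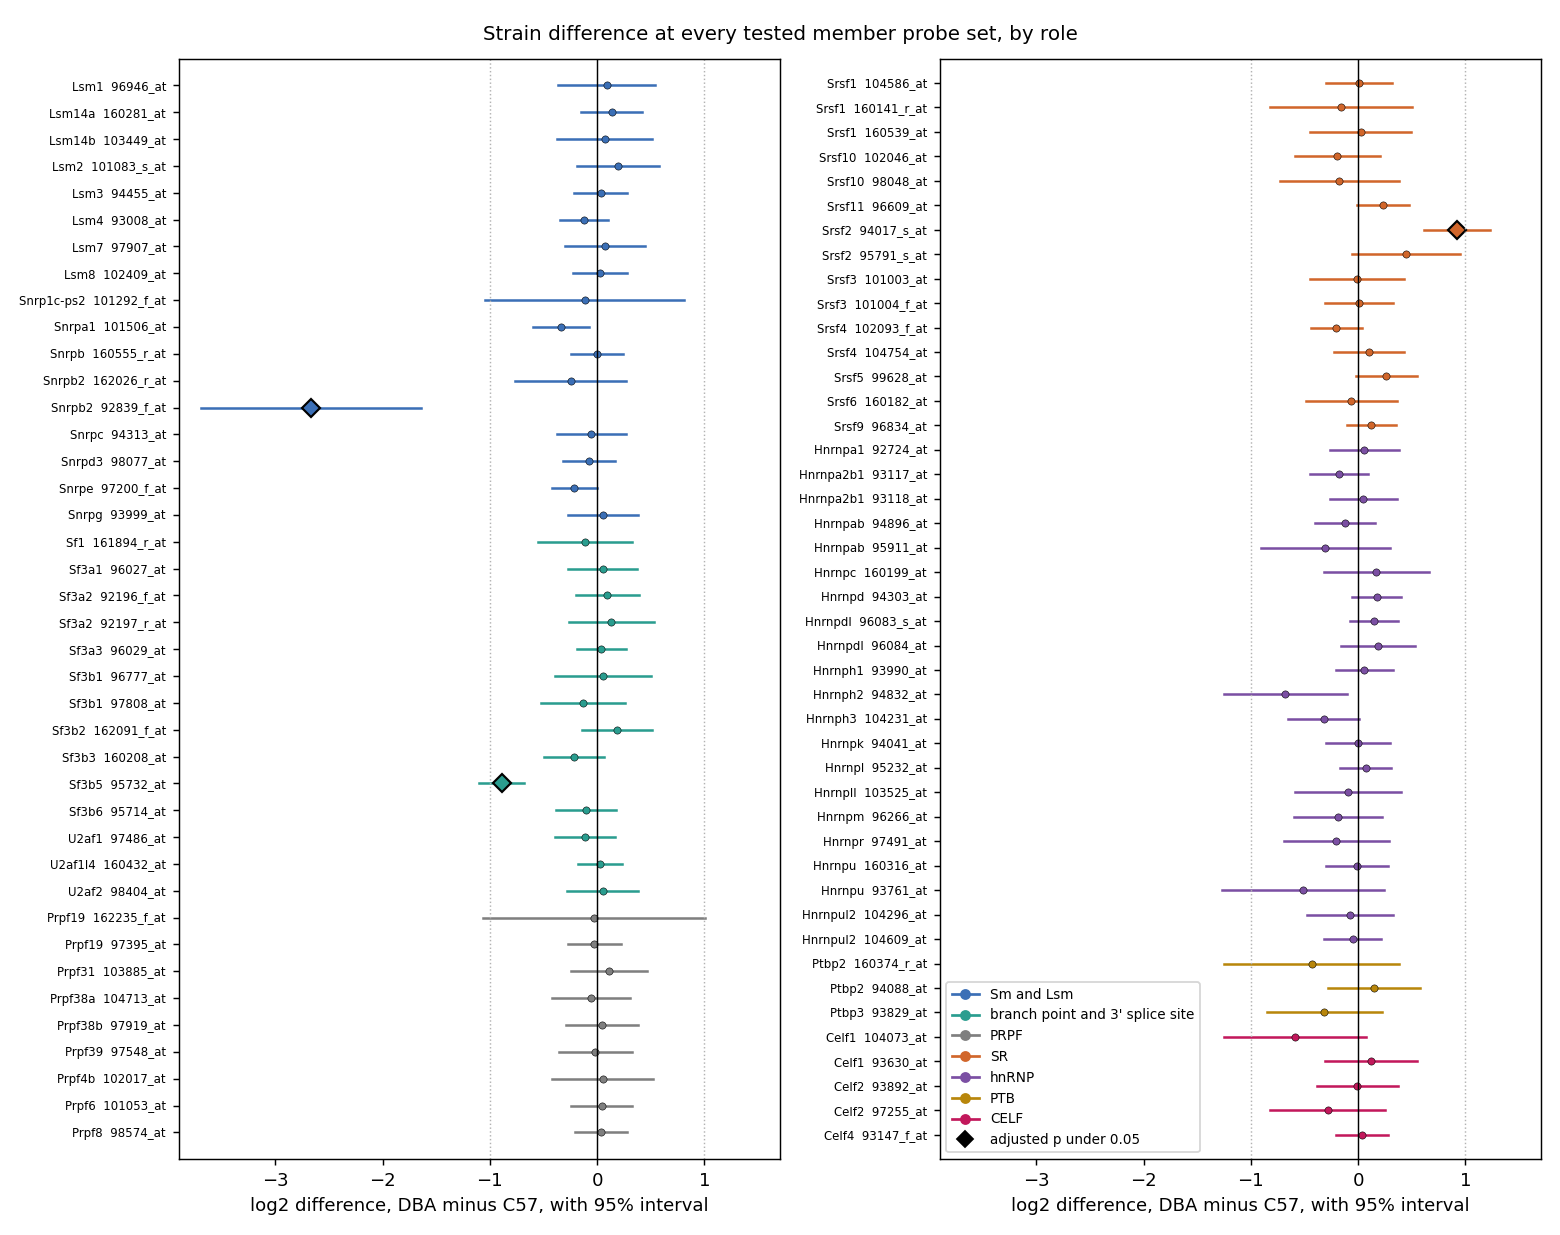
Log2 difference between DBA (n = 4) and C57 (n = 5) at each of the 84 tested member probe sets, with its 95% interval from limma, coloured by role. Diamonds are the 3 sets with an adjusted p under 0.05, the dotted lines mark 2-fold, and 75 of the intervals lie between them.

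**Figure D2:**
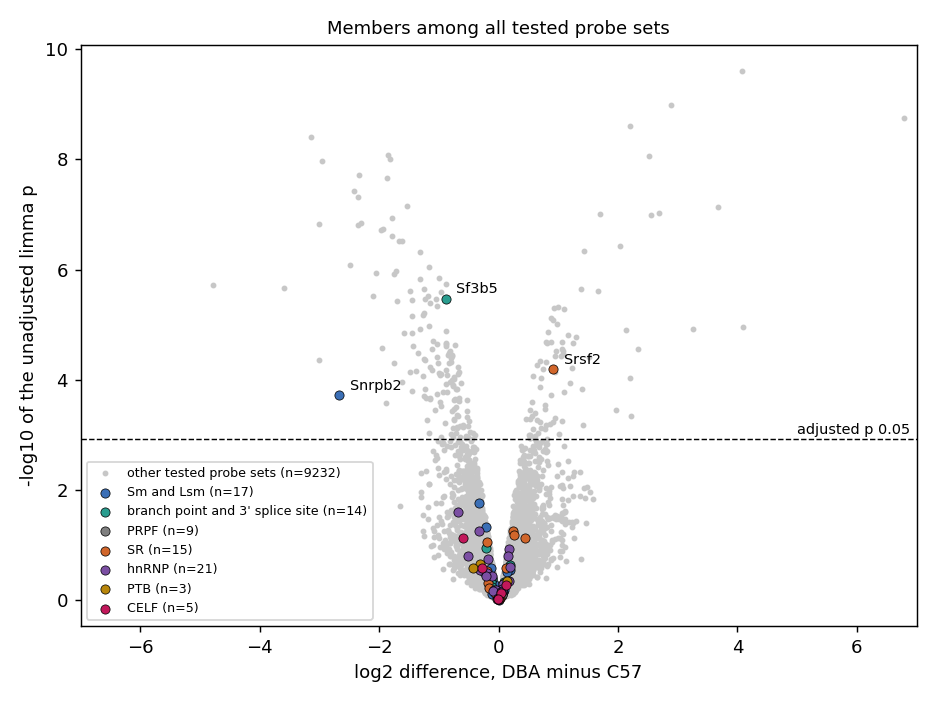
Log2 difference (x axis) against the -log10 of the unadjusted limma p (y axis) for all 9316 tested probe sets, with the 84 member sets coloured by role. The 3 named members lie above the dashed line of adjusted p 0.05, and the other member sets lie below it and near 0.

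Among factors that recognise the branch point and the 3′ splice site, Sf3b5 stood apart. It encodes a small subunit of SF3B, the U2 subcomplex that clamps the branch point. Its only probe set, 95732_at, read 1049, 1126.8, 1082.9, 1232.8 and 1251.2 in C57 animals 1 to 5 and 605, 602.8, 628.4 and 640.2 in DBA animals 1 to 4. The highest DBA animal lay well below the lowest C57 animal, and the DBA animals differed little among themselves (SD 0.04 in log2, n = 4, against 0.11 in C57, n = 5). The signal of Sf3b5 at this set was thus 1.85-fold lower in DBA (-0.89 ± 0.09, 95% interval -1.10 to -0.68, adjusted p = 0.000638). No second set of the gene was there to check it. Leaving out any 1 animal kept the difference between -0.92 and -0.86.

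The partners of Sf3b5 in the same subcomplex differed by less. Sf3b1, the largest subunit and the one that holds the branch point, differed by 0.05 ± 0.20 at 96777_at and by -0.13 ± 0.17 at 97808_at. Values were -0.22 ± 0.12 for Sf3b3, 0.18 ± 0.15 for Sf3b2 and -0.10 ± 0.12 for Sf3b6, which contacts the branch point region. Phf5a, an SF3B subunit outside the symbol rule and named after its value was seen, gave 0.28 ± 0.24. The SF3A subunits, which join SF3B in the mature U2 particle, gave 0.05 ± 0.14 (Sf3a1), 0.10 ± 0.13 and 0.13 ± 0.18 (sets 92196_f_at and 92197_r_at of Sf3a2) and 0.04 ± 0.10 (Sf3a3). Of the factors that act before U2 binds, the branch point protein gene Sf1 gave -0.11 ± 0.20. U2af2, whose product reads the polypyrimidine tract, gave 0.05 ± 0.15, and U2af1, whose product reads the AG at the intron end, gave -0.11 ± 0.13. U2af1l4, a relative of U2af1, gave 0.03 ± 0.09. In this group of 14 tested sets 0 others passed, and the smallest adjusted p among them was 0.556 (Sf3b3).

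The Sm and Lsm group holds the ring proteins of the snRNPs and particle-specific proteins, and Snrpb2 was its 1 called gene. Snrpb2 encodes the U2 protein B″, which binds a stem-loop of U2 RNA together with the product of Snrpa1. At 92839_f_at the C57 animals 1 to 5 read 151, 122.2, 148.2, 135.1 and 129.1, and the DBA animals 6.3, 32.8, 39.6 and 26.2. All DBA animals lay below all C57 animals, and 3 of the 4 lay below the brightness limit of 35.4. With values below the limit raised to it, Snrpb2 was 3.75-fold lower in DBA at this set (means of 136.7 and 36.4, or 21.5 in DBA as measured). That fold rests on the limit chosen and makes no allowance for the spread between animals. The fitted difference of -2.67 ± 0.46 (adjusted p = 0.0114) rests on the dim values and is no measure of size. It became -2.08 without DBA animal 1, the lowest, and -1.57 where 32 was added to each intensity in place of a floor.

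The other set of Snrpb2 did not pass. At 162026_r_at the C57 animals read 271.5, 160, 296.8, 204.8 and 149 and the DBA animals 135, 192.9, 207.5 and 175.6. The strains overlapped there, with 3 DBA animals inside the C57 range (-0.25 ± 0.23, adjusted p = 0.765). Tested directly, the strain difference at 92839_f_at minus that at 162026_r_at was -2.42 ± 0.39 log2 units (adjusted p = 0.00823 over all 1528 such pairs of sets on the array). This contrast uses the same dim DBA values, was -1.66 ± 0.20 with values below the limit raised to it, and could not be fitted with the dimmest 50% of sets left out. A set name ending in f_at marks probes that match a family of similar sequences, and one ending in r_at marks a set for which some of the maker's rules of probe choice were dropped. The 2 sets therefore do not give 1 level for Snrpb2.

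Snrpa1, whose product is the partner of B″ on U2 RNA, read 278, 258.7, 216.8, 235.5 and 228.4 in C57 and 203.5, 175, 176.9 and 218 in DBA. Only DBA animal 4 reached into the C57 range. The difference was -0.33 ± 0.12 and did not pass (p = 0.0173 in limma, adjusted p = 0.246). Snrpe, a protein of the Sm ring, read 1311.5, 1271.3, 1284.4, 1247.5 and 1345.3 in C57 and 1096.1, 1089.7, 1034.8 and 1253.8 in DBA. DBA animal 4 was again the only one within the C57 range, and the difference was -0.21 ± 0.09 (adjusted p = 0.399).

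Other ring proteins lay closer to 0. Of the Sm ring, Snrpb gave 0.00 ± 0.11 at 160555_r_at, Snrpd3 -0.07 ± 0.11 and Snrpg 0.06 ± 0.15. Snrpc, a U1 protein that steadies pairing with the 5′ splice site, gave -0.05 ± 0.14, and the pseudogene Snrp1c-ps2 -0.12 ± 0.41 with intensities from 116.5 to 369.3, at a set ending in f_at. Of the Lsm proteins that ring U6 RNA, Lsm2 gave 0.20 ± 0.17, Lsm3 0.03 ± 0.11, Lsm4 -0.12 ± 0.10, Lsm7 0.08 ± 0.17 and Lsm8 0.03 ± 0.11. Lsm1, which takes the place of Lsm8 in the cytoplasmic ring of mRNA decay, gave 0.09 ± 0.20. Lsm14a and Lsm14b, proteins of cytoplasmic RNA granules that carry an Lsm domain, gave 0.14 ± 0.13 and 0.07 ± 0.20.

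SR proteins bind exonic enhancers and carry a domain rich in arginine and serine. Srsf2, also known as SC35, rose in DBA at 94017_s_at. The C57 animals read 2293.7, 3117.9, 2634.3, 3116.8 and 3395.1 and the DBA animals 5308.9, 6023, 5821.3 and 4756.9, so the lowest DBA animal was above the highest C57 animal. Srsf2 was 1.89-fold higher at this set (0.92 ± 0.14, 95% interval 0.61 to 1.23, adjusted p = 0.00505), and the difference stayed between 0.84 and 0.99 when any 1 animal was left out.

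At the second Srsf2 set, 95791_s_at, the C57 animals read 1110.3, 763, 1067.1, 822 and 787.1 and the DBA animals 1504.9, 1243.1, 760.6 and 1576. In DBA 3 of the 4 values lay above all C57 values, and that of DBA animal 3 lay below them all. The difference of 0.45 ± 0.22 did not pass (adjusted p = 0.485). The contrast between both sets was -0.47 ± 0.32 (95% interval -1.19 to 0.24, adjusted p = 0.754), so the sets were not shown to differ from each other either. An ending in s_at marks probes shared by several transcripts of similar sequence, and both Srsf2 sets have it.

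No other SR gene passed. Srsf5 and Srsf11 gave 0.26 ± 0.13 and 0.23 ± 0.11 (adjusted p = 0.460 and 0.432), and Srsf9 0.12 ± 0.10. For Srsf4 the sets gave -0.20 ± 0.11 (102093_f_at) and 0.10 ± 0.15 (104754_at). The 3 tested sets of Srsf1, the archetype of the family, gave 0.01 ± 0.14 (104586_at), 0.02 ± 0.21 (160539_at) and -0.16 ± 0.30 (160141_r_at). Srsf3 gave -0.01 ± 0.20 and 0.01 ± 0.14, Srsf6 -0.06 ± 0.19 and Srsf10 -0.19 ± 0.18 and -0.17 ± 0.25. Over its 15 tested sets the group had 9 above 0 and 6 below.

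**Figure D3:**
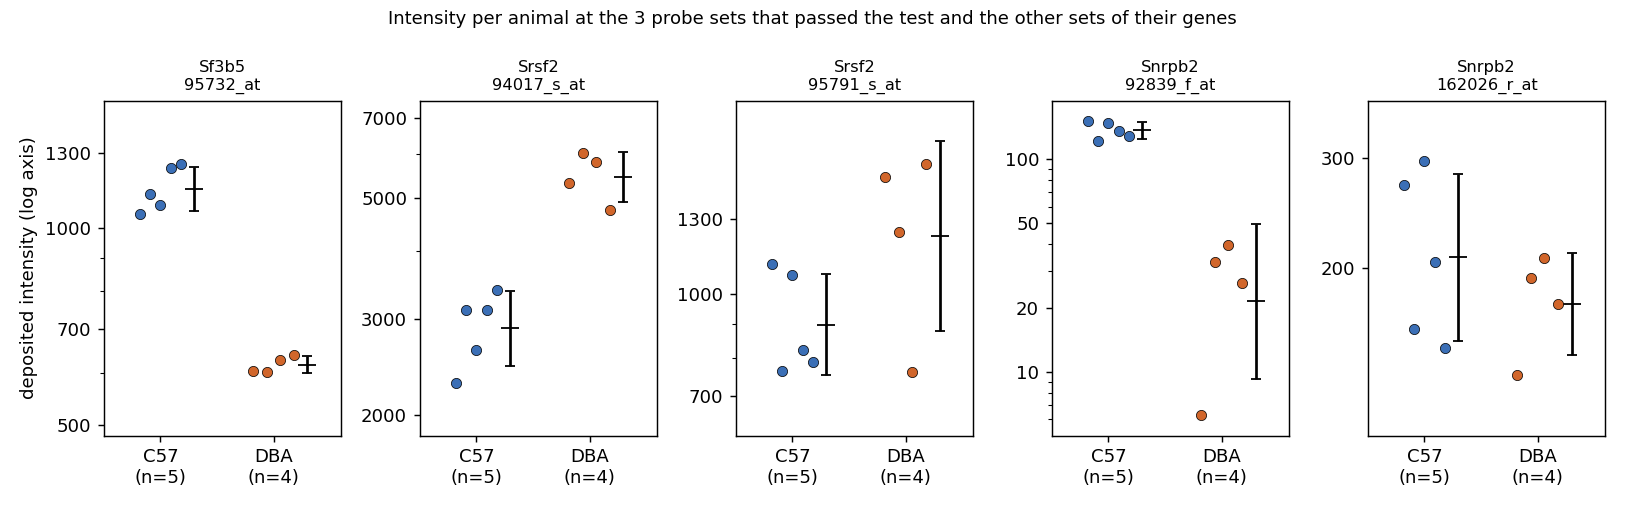
Deposited intensity in each animal (points, log axis, C57 n = 5 and DBA n = 4) at the 3 called sets and at the second sets of Srsf2 and Snrpb2, with the geometric mean and 1 SD of log2 values as bars. The strains separate at 95732_at, 94017_s_at and 92839_f_at and overlap at 95791_s_at and 162026_r_at.

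The PRPF proteins, named after yeast mutants in pre-mRNA processing, were the group whose estimates lay nearest to 0. The 9 tested sets lay between -0.06 (Prpf38a) and 0.11 (Prpf31). Prpf31, which ties the U4/U6 particle to U5, had the smallest p and read 300.1, 360.2, 276.2, 462 and 410.1 in C57 and 402.6, 373.9, 406.5 and 352 in DBA. All DBA animals lay inside the C57 range (0.11 ± 0.16, adjusted p = 0.861). Prpf8, the large protein at the heart of the enzyme, gave 0.04 ± 0.11, Prpf6, another bridge to U5, 0.04 ± 0.13, and the kinase gene Prpf4b 0.05 ± 0.21. Prpf38a and its relative Prpf38b gave -0.06 ± 0.16 and 0.04 ± 0.15, and Prpf39, a U1-associated protein, -0.02 ± 0.15. Prpf19, a ubiquitin ligase of the active spliceosome, gave -0.03 ± 0.11 at 97395_at and -0.03 ± 0.46 at the dim set 162235_f_at, where the interval of -1.06 to 1.01 leaves the level undetermined.

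Of 21 tested hnRNP sets 0 passed, 8 were above 0 and 13 below, and the median was -0.05. The largest difference was that of Hnrnph2, one of the G-run binding proteins, with 774.4, 476.8, 547.5, 421.2 and 461.3 in C57 and 338.4, 290.7, 221.5 and 525.7 in DBA. DBA animals 1 to 3 lay below all C57 animals, and DBA animal 4 lay among them (-0.68 ± 0.26, p = 0.0252 in limma, adjusted p = 0.301). Its relatives gave -0.32 ± 0.15 (Hnrnph3, adjusted p = 0.431) and 0.06 ± 0.12 (Hnrnph1). Hnrnpa1, which opposes SR proteins at many exons, gave 0.06 ± 0.14. Its relative Hnrnpa2b1, a carrier of RNA in dendrites and myelinating cells, gave -0.18 ± 0.12 (93117_at) and 0.05 ± 0.14 (93118_at).

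None of the other hnRNP sets passed, and every 95% interval among them held 0. Hnrnpk, a poly(C)-binding protein, gave 0.00 ± 0.13, Hnrnpl, which binds CA repeats, 0.07 ± 0.11 and its relative Hnrnpll -0.09 ± 0.22. Hnrnpd, a binder of AU-rich elements, gave 0.17 ± 0.10, and its relative Hnrnpdl 0.15 ± 0.10 and 0.18 ± 0.15. Hnrnpc gave 0.17 ± 0.22, Hnrnpm -0.19 ± 0.18, Hnrnpr -0.20 ± 0.22, and the sets of Hnrnpab -0.12 ± 0.12 and -0.31 ± 0.27. Hnrnpu, a nuclear scaffold protein, gave -0.01 ± 0.13 at 160316_at and -0.51 ± 0.34 at 93761_at, a dim set (69.0 in C57 and 48.4 in DBA). The sets of Hnrnpul2 gave -0.08 ± 0.18 and -0.05 ± 0.12.

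PTB proteins repress exons flanked by pyrimidine tracts, and Ptbp2 is the form of neurons. Ptbp2 gave 0.15 ± 0.19 at 94088_at and -0.43 ± 0.36 at 160374_r_at. Ptbp3 had the smallest p of the 3 sets, with 240.5, 159.1, 137.9, 108.7 and 168.3 in C57 and 108.4, 109.8, 116.2 and 185.9 in DBA. The strains overlapped, and DBA animal 4 lay apart from the other DBA animals (-0.31 ± 0.24, adjusted p = 0.694).

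CELF proteins bind GU-rich elements and act in splicing and mRNA decay. Celf4, a form found mainly in neurons, gave 0.04 ± 0.11, and Celf2 gave -0.01 ± 0.17 (93892_at) and -0.28 ± 0.24 (97255_at). The smallest p of the 5 sets was that of Celf1 at 104073_at, a dim set with 80.5, 47.3, 67.7, 55 and 39.8 in C57 and 21.5, 38.4, 39.5 and 59.9 in DBA. Here 3 DBA animals lay below all C57 animals and the last within their range (-0.59 ± 0.30, adjusted p = 0.482). The brighter Celf1 set, 93630_at, read 240.5, 302, 202.8, 183.9 and 313.3 in C57 and 295.5, 243.4, 316.6 and 213.9 in DBA (0.12 ± 0.19).

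**Figure D4:**
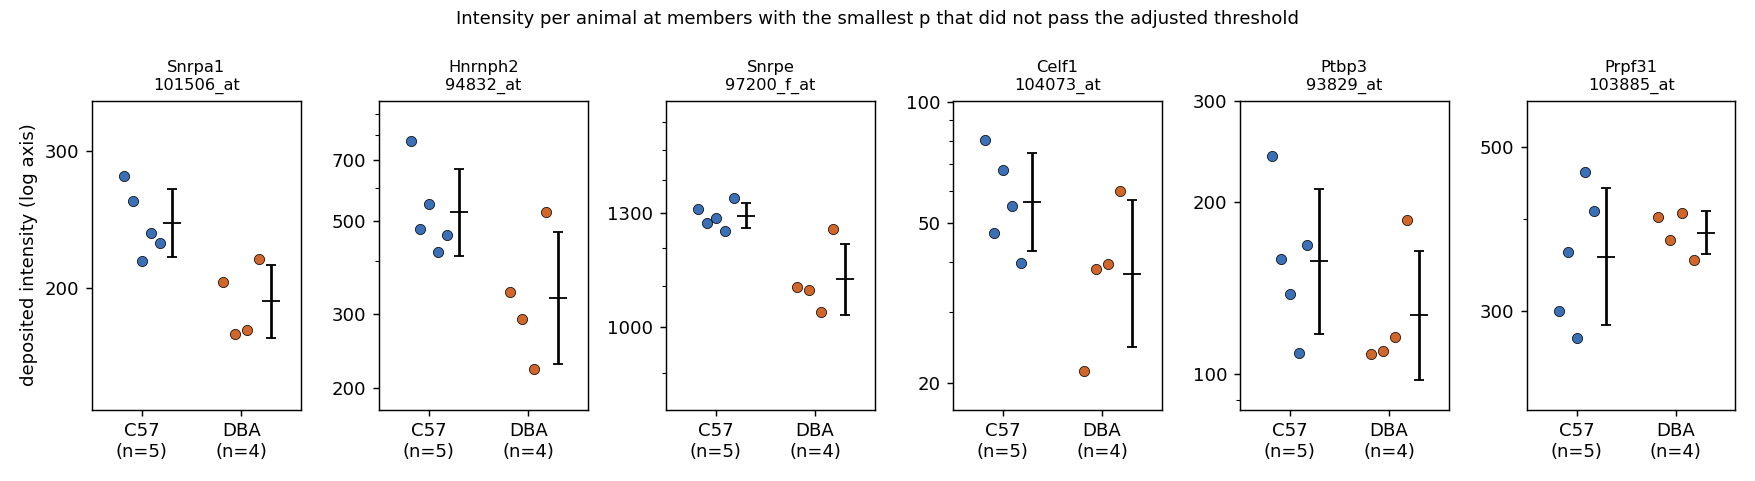
Deposited intensity in each animal (points, log axis, C57 n = 5 and DBA n = 4) for Snrpa1, Hnrnph2, Snrpe, Celf1, Ptbp3 and Prpf31, with the geometric mean and 1 SD of log2 values as bars. The strains overlap in every panel, and DBA animal 4 is the highest DBA animal in the panels of Snrpa1, Snrpe, Hnrnph2, Ptbp3 and Celf1.

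For 17 member genes more than 1 set was tested, which gave 18 pairs of a set with the brightest set of its gene. In 11 of the 18 pairs both sets lay on the same side of 0. The contrast between sets was called for 1 pair, that of Snrpb2, while 2.55% of all 1528 pairs were called. That call rests on the dim DBA values at 92839_f_at, a set bright enough to be tested only through its C57 values. Of the other pairs, the widest contrast was that of Celf1 (-0.71 ± 0.42), followed by Ptbp2 (-0.58 ± 0.44) and Hnrnpu (-0.50 ± 0.32), and their smallest adjusted p was 0.636 (Srsf4). An unadjusted p under 0.05 was found for 1 of the 18 pairs, again that of Snrpb2, against 8.7% of all pairs. With the brightest set of each gene alone, 2 of the 66 genes were called, Sf3b5 and Srsf2, against 2.23% of 6864 genes.

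**Figure D5:**
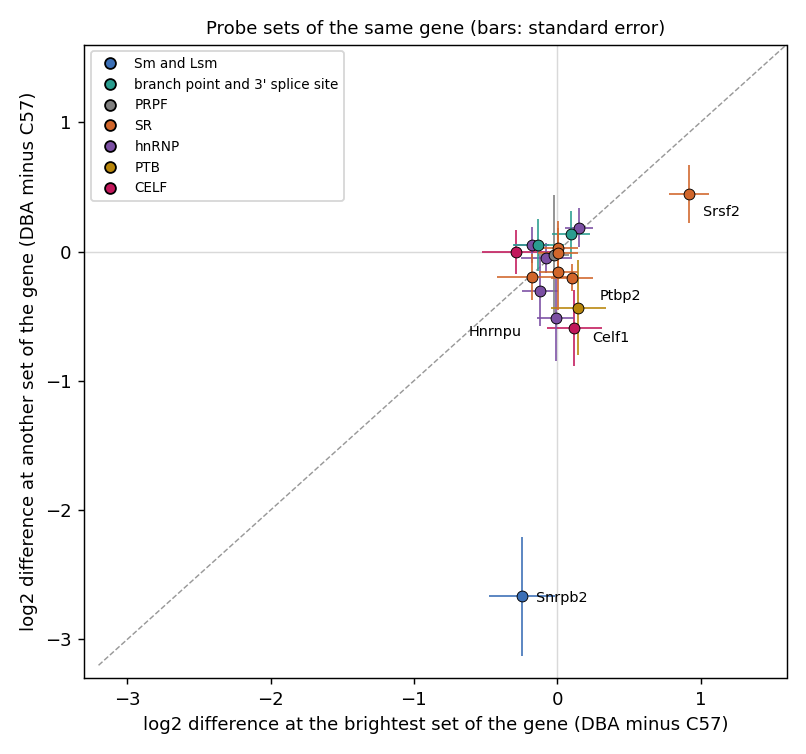
Log2 difference, DBA minus C57, at the brightest set of a gene (x axis) and at another tested set of the same gene (y axis), with standard errors as bars, for 18 pairs of 17 member genes. Snrpb2 lies far from the dashed line of equal differences, at -0.25 and -2.67, and the other pairs lie nearer to it. The value of -2.67 rests on dim DBA values.

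Members varied between animals of a strain about as much as other sets did. The median SD of log2 values was 0.23 in C57 and 0.21 in DBA for the members, and 0.23 in both strains over all tested sets. Sets ending in r_at had a median SD of 0.40 in C57 and 0.35 in DBA (6 sets), against 0.23 and 0.20 for the 65 sets with a plain ending. DBA animal 3 had the lowest value of its strain at 38 of the 84 member sets, with a median deviation of -0.105 from the strain mean, while its deviation over all tested sets was -0.004. C57 animal 1 had the highest value of its strain at 34 member sets, and its deviation of 0.08 over the members was close to its 0.09 over all sets. The called counts were the same with either of these animals left out (1 member set higher and 2 lower).

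Genes next to the called members were looked up after the calls were seen. In RefSeq order, 6 protein-coding genes on either side of Sf3b5, Snrpb2 and Srsf2 were taken, 36 in all. Tested sets were found for 15 of them (3 near Sf3b5, 7 near Snrpb2 and 5 near Srsf2). Of their 18 sets 0 were called by limma, against 2.5% of all tested sets. The smallest adjusted p of that fit was 0.167, with differences from -0.40 to 0.48. So few sets at that background share cannot show whether the regions differ.

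Splicing and other RNA-binding genes outside the symbol rule were read from 4 lists. Of the 67 tested sets of other spliceosome and exon junction genes, 1 was called (1.49%, background 2.5%). This was Smndc1, which encodes a Tudor-domain protein needed for spliceosome assembly and associated with the U2 particle. It was 2.02-fold lower in DBA (927.6 in C57 and 459.2 in DBA, -1.01 ± 0.15, adjusted p = 0.0042). Of the 16 sets of other SR-related proteins and SR kinases, 0 were called by limma. The same held for the 36 of neuronal and other splicing regulators and the 28 of other brain RNA-binding proteins. In these lists 1, 2 and 3 sets had an unadjusted p under 0.05. In the spliceosome list 7 of 67 had one, against 12.2% of all tested sets. The smallest adjusted p of each list without a call was 0.272 for the SR kinase gene Clk1 (0.36 ± 0.13), 0.33 for the epithelial splicing regulator gene Esrp2 (-0.85 ± 0.34) and 0.137 for the cold-induced RNA-binding protein gene Cirbp (0.52 ± 0.15).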

How the data were processed

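Whole-brain total RNA of 5 C57 and 4 DBA mice was labelled from 5 ug, per the labels. Each numbered title of the platform used was taken as 1 animal on 1 Affymetrix array. The deposited values are linear intensities, 1 per probe set. Scanner software, probe summary and scaling: not given in the sources used here. The number of arrays limits the precision. Control sets were left out. Values below the 1st percentile of the positive values of all arrays together (an intensity of 1.7) were raised to it. Then log2 was taken, and the dimmest 25% of sets (by mean over all arrays) were left out. DBA was compared with C57 in limma 3.58.1 (R 4.3.3) with Benjamini-Hochberg adjustment over all 9316 tested sets. The contrast between sets of 1 gene was fitted the same way. Symbols came from the platform annotation, updated through RefSeq gene identifiers. The steps were tested on simulated data. Tables and figures used Python 3.11.15, pandas 2.3.3 and matplotlib 3.10.9. Sets were given in every animal when p was under 0.05, adjusted or not, or smallest in their role group, and other lists by their called sets or smallest p. The members and lists were chosen with earlier results of these data known. Other scalings, floors, filters, variance models, a replicate block and leaving out each animal were tried. Arrays of the second platform, whose titles add a letter to the number, were not used here. Whether they read the same animals was not checked.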

Additional observations from a re-analysis of the deposited data

Results flagged for a closer look

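Ptbp3, which encodes a relative of the PTB splicing repressor, had 1 DBA animal far from the other 3 at 93829_at. DBA animal 4 read 185.9 and the next highest DBA animal 116.2, and on the log2 scale that gap was 0.871 of the whole range in DBA, above Dixon's 95% critical value for 4 animals. Of 24 groups of animals checked this was 1, and chance alone is expected to mark about 1 in 20 groups.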

How the results depend on the processing

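With values below the brightness limit raised to it, an alternative chosen after seeing the data, the same 3 member sets were called. They were also called with each animal left out in turn and under 5 other settings (quantile normalization, median centring, a floor at the 5th percentile, 32 added to each intensity, no brightness filter). The set of Snrpb2 was not tested with the dimmest 50% left out, nor were 104073_at of Celf1 and 93829_at of Ptbp3. Leaving out sets with a suffix before _at left 1 member set called, Sf3b5. Leaving out the dimmest 50% gave 0 pairs of sets called and 2 sets of the other lists (1 higher and 1 lower), and an intensity trend with robust variance, which kept the 3 member calls, also gave 2 sets of the other lists. Deviations of animals of the same number in both strains had correlations of -0.102, -0.016, -0.007 and -0.167. Each compares only the animals of a single number, so these values cannot decide whether the numbers pair animals. No label says that they do. With the number as a replicate block 0 member sets, 0 member genes, 0 pairs and 0 sets of the other lists were called by limma, and 73 in the whole table. The adjusted p under the block was 0.0564 for Sf3b5 (-0.86), 0.0676 for Srsf2 (0.98) and 0.0871 for Snrpb2 (-2.69). Number 5 occurs in C57 only, so that animal does not bear on the strain difference under the block. Without C57 animal 5 and with no block, the 3 differences were the same and all 3 sets were called. The causes of the changes in calls between settings were not tested. The 3′ to 5′ ratio difference ran from -0.225 to -0.156 with 1 animal left out. Signal over background limits 92839_f_at of Snrpb2 in DBA.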
